A study of Mus musculus with 6 samples.

Results

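The genes described here encode 9 regulators of local protein synthesis at synapses. They are the fragile X family (Fmr1, Fxr1 and Fxr2), the cytoplasmic polyadenylation element-binding proteins (Cpeb1, Cpeb2, Cpeb3 and Cpeb4) and the FMRP-interacting CYFIP proteins (Cyfip1 and Cyfip2). They were taken by gene name from the deposited table of 21958 protein-coding genes, all 9 were found, and all 9 were among the 12255 genes with enough counts to be tested. RNA came from synaptoneurosomes, a preparation enriched in resealed synaptic terminals, made from the hippocampus and the cortex next to it of FVB mice, male according to the methods and 6 to 8 weeks old, with no engineered allele named, and the material of several mice was pooled. The polyribosome group (3 libraries) held RNA of the light and heavy polyribosomal fractions, taken without RNA granules, of synaptoneurosomes given 50 µM NMDA and 10 µM glutamate for 30 s, then 120 µM APV, an NMDA receptor antagonist, and left for 20 min. The total group (3 libraries) held the unfractionated RNA of unstimulated synaptoneurosomes, which were held on ice with cycloheximide, so that stimulation and fraction cannot be told apart in any comparison below. The libraries carry replicate numbers 1 to 3 in both groups, and the labels do not say that numbers are separate animals, so p-values measure only the spread between these samples, which may be technical.

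The fragile X protein FMRP, whose loss causes fragile X syndrome, is an RNA-binding protein found on polyribosomes and in dendritic granules, where it holds back the translation of the mRNAs it binds. CPEB proteins bind a U-rich element, the cytoplasmic polyadenylation element (CPE), in the 3′ untranslated region (3′ UTR), and CPEB1 can either silence an mRNA or have its poly(A) tail lengthened after stimulation. CYFIP1 joins FMRP to the cap-binding protein eIF4E, and both CYFIP proteins are also subunits of the WAVE complex, which drives actin branching in dendritic spines.

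Because CPEB proteins act on mRNAs through the CPE, the 9 mRNAs were themselves searched for it. The letters TTTTAT and TTTTAAT were looked for on the transcript strand of the longest coding transcript of each gene (Gencode vM21, GRCm38). At least 1 match was found in the 3′ UTR of 8 of the 9 mRNAs, and none in that of Fxr2. The 30 bases around the match nearest the transcript end are given for each gene, 5′ to 3′ on the strand of the gene, with the match in capitals, and for Fxr2 the polyadenylation hexamer AATAAA is in capitals instead.
Fmr1, chrX:68717917-68717946, plus strand: ctagatgtaaatTTTTATtaaaaagttgca
Fxr1, chr3:34069437-34069466, plus strand: ttttgttacatTTTTAATaatatgcaacca
Fxr2 (hexamer), chr11:69653266-69653295, plus strand: atttaaaaagagAATAAAaaaatccaaatg
Cpeb1, chr7:81347256-81347285, minus strand: ttgacttttctTTTTAATttaacgattact
Cpeb2, chr5:43289554-43289583, plus strand: taatttagtttaTTTTATtgttatcttcca
Cpeb3, chr19:37021506-37021535, minus strand: ggaataaattaaTTTTATgatgctaattct
Cpeb4, chr11:31935406-31935435, plus strand: gggtaattcattTTTTATtaaagtcatttt
Cyfip1, chr7:55932573-55932602, plus strand: tcacaaatgtacaTTTTAATgttcatcacc
Cyfip2, chr11:46194144-46194173, minus strand: tttgattttttTTTTAATgtatttaaagat
All of these windows are in 3′ UTRs. In Fmr1 the match overlaps the hexamer ATTAAA and starts 35 bases from the transcript end, and in Cyfip1 it starts 17 bases from the end. These 2 genes have a match within the last 100 bases, as do 19.7% of the genes with this annotation (2322 genes). The Cyfip1 window lies beyond the end of that gene in the deposited table (55930700), where the authors' annotation counted no reads.

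The comparison sets the share of each mRNA in polyribosomal RNA after NMDA receptor stimulation against its share in total RNA of the unstimulated preparation. The abundance of 7 of the 9 mRNAs was lower on average on polyribosomes, by up to a log2 fold change of -0.90 for Cpeb1, and that of Fxr2 and Cyfip1 was slightly higher. Without taking the replicate numbers into account, 0 of 9 passed an adjusted p of 0.01 in either direction (edgeR's quasi-likelihood test, Benjamini-Hochberg adjustment over all genes tested). When the libraries of a replicate number were treated as a pair, a fit called the replicate block below, the mRNAs of Fmr1, Cpeb1, Cpeb2 and Cpeb4 were called lower on polyribosomes. Levels are given as CPM, counts scaled to a common library size with TMM factors. A positive log2 fold change means a larger share of the polyribosome than of the total libraries. This scaling places the typical gene near 0. The values are thus relative to other genes and give no absolute amount of an mRNA on polyribosomes. Counts on a single member ranged from 33 (Cpeb1, total replicate 3) to 3498 (Cyfip2, polyribosome replicate 1), and the totals of the libraries from 1044955 (total replicate 3) to 7361580.

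**Figure D1:**
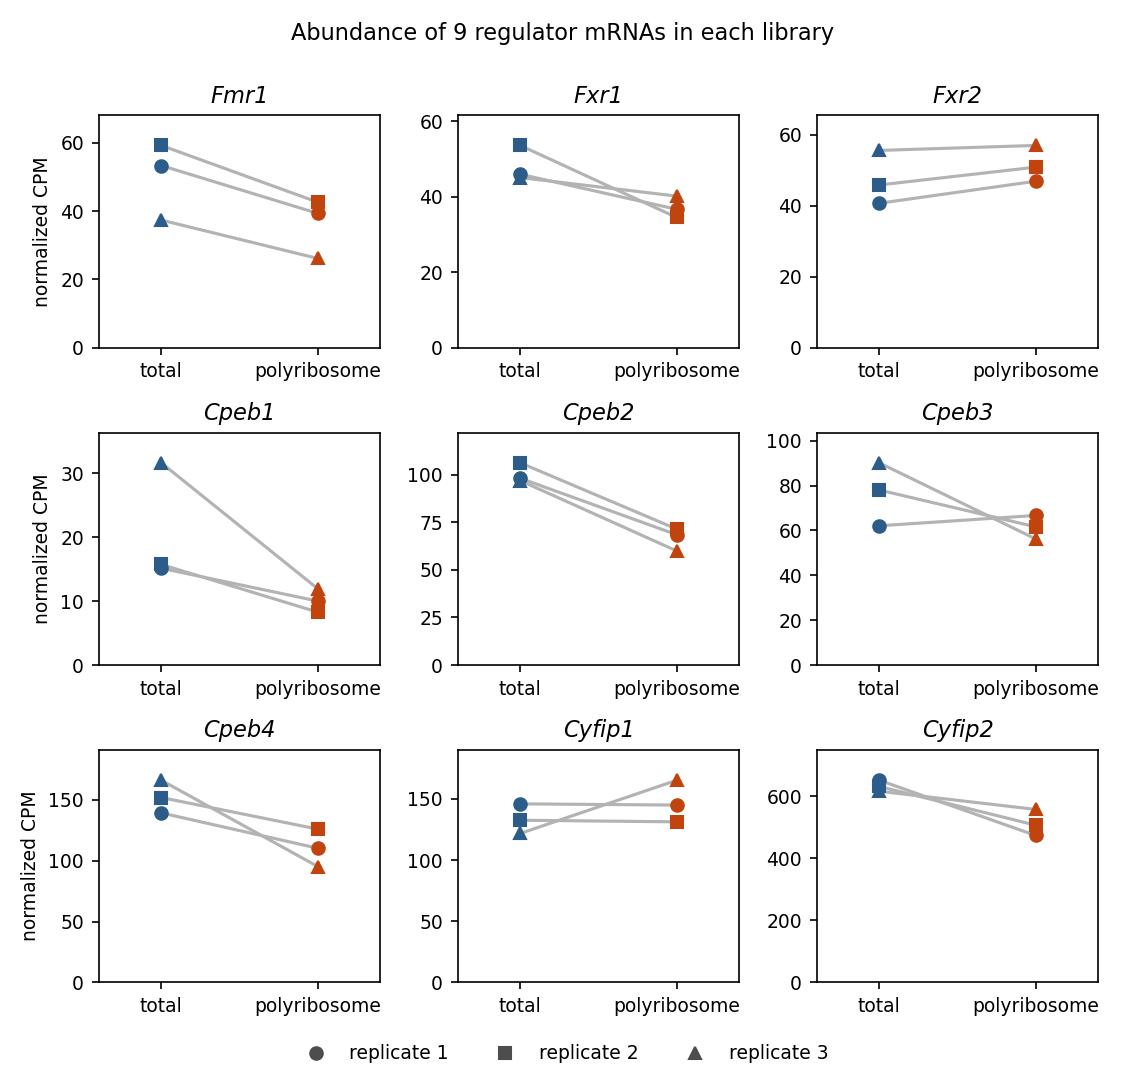
Normalized CPM (vertical axis, from 0) of each of the 9 mRNAs in the 3 total and 3 polyribosome libraries, 1 panel per gene, with the marker shape giving the replicate number and a grey line joining the libraries that share it. The polyribosome points lie below all total points for Fxr1, Cpeb1, Cpeb2, Cpeb4 and Cyfip2, while for Fmr1 every line falls although the groups overlap.

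Fmr1, which encodes FMRP, lies on chromosome X of GRCm38 from 68678541 to 68717963. Its CPM was 39.4, 42.6 and 26.1 in polyribosome replicates 1 to 3 and 53.4, 59.3 and 37.4 in total replicates 1 to 3. Replicate 3 was the lowest in both groups, so the groups overlapped (36.0 ± 8.73 against 50.0 ± 11.3, SD, n = 3), but each polyribosome library was below the total library of its number, with log2 ratios of -0.44, -0.48 and -0.52. The log2 fold change was -0.50 (standard error, SE, 0.21, with an adjusted p of 0.12, edgeR). With the replicate block it was -0.47 (SE 0.14, adjusted p = 0.00491), past the threshold. This call was lost, at an adjusted p of 0.0546 to 0.121, without either library of replicate 1 or of replicate 2, while the log2 fold change stayed between -0.50 and -0.45. In a blocked fit, a library without its partner gives no group difference, so leaving out either one amounts to leaving out the pair.

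Fxr1 and Fxr2 encode the autosomal relatives of FMRP, which share its RNA-binding domains. Fxr1 (chromosome 3, 34019943 to 34070322) had 36.7, 34.5 and 40.1 CPM on polyribosomes and 45.9, 53.6 and 45.1 in total RNA. All polyribosome libraries were below all total libraries, yet the log2 fold change of -0.39 (SE 0.17) did not pass the test without the block (adjusted p = 0.129, edgeR) or with it (adjusted p = 0.0169). In the blocked fits it passed without polyribosome replicate 3 (-0.47, adjusted p = 0.0026) and without total replicate 3 (-0.47, 0.00225), and it was -0.26 without either library of replicate 2. Fxr1 shares 178 exonic bases with Dnajc19 on the opposite strand, and since the use of strand in counting is not given in the sources used here, reads there could not be told apart. Dnajc19 had 107, 107 and 57 counts on polyribosomes and 61, 56 and 12 in total RNA, against 271, 229 and 195, and 185, 160 and 47, for Fxr1. The same limit holds for other members. Cpeb2 shares 137 exonic bases with Gm7854, Cpeb3 116 with A330032B11Rik and Cyfip1 148 with Gm44616, all on the opposite strand. Fmr1 shares 72 with Gm27838 on its own strand. Cyfip1 also shares 1316 with Nipa2 on the opposite strand, though these genes do not overlap in the deposited table. Fxr2 (chromosome 11, 69632990 to 69653297) had 46.9, 50.9 and 57.0 CPM on polyribosomes and 40.7, 45.9 and 55.6 in total RNA. Its groups overlapped, and the log2 fold change was 0.15 (SE 0.18, adjusted p = 0.593, edgeR).

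Cpeb1 encodes the founding member of the CPEB family, which binds the CPE and is switched by phosphorylation. The gene lies on chromosome 7 from 81347026 to 81455465. It had 10.0, 8.29 and 11.9 CPM on polyribosomes, from 74, 55 and 58 counts, and 15.2, 15.7 and 31.6 CPM in total RNA, from 61, 47 and 33 counts. The groups did not overlap, and total replicate 3, the shallowest library, stood far above the other total libraries. The log2 fold change was -0.90 (SE 0.27), a 0.54-fold level, with an adjusted p of 0.0359 without the block and 5.56e-05 with it (edgeR). Without total replicate 3 it was -0.63 in the fit without the block and -0.74 in the fit with it. Cpeb1 passed in all 6 blocked fits that left out a library, and so without each pair, at an adjusted p of at most 0.00513.

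Cpeb2, Cpeb3 and Cpeb4 form the other branch of the family, which is more alike in sequence and abundant in forebrain neurons. Cpeb2 (chromosome 5, 43233170 to 43289724) had 68.5, 71.4 and 59.9 CPM on polyribosomes and 98.1, 106.2 and 96.9 in total RNA. The groups were well separated, and the log2 fold change was -0.59 (SE 0.16, adjusted p = 0.0249 without and 8.41e-05 with the block, edgeR). The blocked call of Cpeb2 was lost without polyribosome replicate 2 (adjusted p = 0.0232) and without total replicate 2 (adjusted p = 0.0224), at an almost equal log2 fold change of -0.59 in both cases.

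Cpeb3 (chromosome 19, 37021291 to 37208601) had 66.7, 61.6 and 56.2 CPM on polyribosomes and 62.1, 78.0 and 90.1 in total RNA. Its groups overlapped through replicate 1, and the log2 ratios within pairs were 0.10, -0.34 and -0.68, so that the pairs did not move alike. The log2 fold change was -0.29 (SE 0.18, adjusted p = 0.266 without and 0.104 with the block, edgeR). Cpeb4 (chromosome 11, 31872211 to 31935634) had 110.1, 125.8 and 95.1 CPM on polyribosomes and 139.1, 151.7 and 165.9 in total RNA. Its groups did not overlap, and the log2 fold change of -0.46 (SE 0.17) had an adjusted p of 0.0755 without and 0.0026 with the block (edgeR). All 6 blocked fits that left out a library, and so its pair, lost the call of Cpeb4, at an adjusted p of 0.0128 to 0.0388. Their log2 fold changes were -0.55 to -0.30.

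Cyfip1 encodes the CYFIP protein that binds eIF4E. The gene was counted on chromosome 7 from 55841745 to 55930700. Its CPM was 145.0, 131.3 and 165.3 on polyribosomes and 146.0, 132.6 and 121.8 in total RNA. In replicates 1 and 2 the paired libraries were almost equal, with log2 ratios of -0.01 in both, and replicate 3 alone differed, by 0.44. The log2 fold change was 0.13 (SE 0.17, adjusted p = 0.615 without and 0.506 with the block, edgeR), and it was -0.01 in the blocked fits without either library of replicate 3.

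Cyfip2 encodes the paralog that in the brain is the main CYFIP subunit of the WAVE complex, and lies on chromosome 11 from 46193850 to 46312859. It had 473.2, 506.3 and 557.1 CPM on polyribosomes and 651.1, 631.0 and 615.7 in total RNA. The groups did not overlap, and the SD of 17.8 CPM around 632.6 in total RNA was small. The log2 fold change was -0.31 (SE 0.16, adjusted p = 0.211 without and 0.0398 with the block, edgeR). In the blocked fits it passed without either library of replicate 3 (adjusted p = 0.00048 without polyribosome replicate 3 and 0.000376 without total replicate 3).

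In all, the fit without the block called 0 of 9 members higher and 0 of 9 lower on polyribosomes, where 0.710% of all genes tested were called higher and 2.36% lower. At an unadjusted p under 0.05, 5 of the 9 were lower (Fmr1, Fxr1, Cpeb1, Cpeb2 and Cpeb4) and 0 higher, beside 2092 of the 12255 genes lower and 1888 higher, and DESeq2 called 0 members at an adjusted p of 0.01. With the replicate block, 4 of 9 were called lower and 0 higher, beside 13.2% of all genes called lower and 11.8% higher. The polyribosome libraries were all below the total libraries for 5 members and all above for 0, beside 18.9% of all genes below and 17.4% above. The median log2 fold change of the members was -0.39, beside 0.00 over all genes tested, which the TMM scaling holds near 0. Scaling by total counts alone, in place of TMM, moved the median of all genes to -0.11, and under it the values of Fxr2 and Cyfip1, 0.04 and 0.02, remained above 0.

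The 9 mRNAs differ widely in base composition, and so did the fold changes of all genes. The GC content of the longest coding transcript was 39.2% for Fmr1, 39.4% for Fxr1 and 39.3% for Cpeb4, below the lower quartile of 45.5% over the genes tested. It was between 46.1% and 51.8% for Cpeb1, Cpeb2, Cpeb3, Cyfip1 and Cyfip2, and 58.5% for Fxr2, above the upper quartile of 55.1%. When the genes were split into 4 equal classes from low to high GC, the median log2 fold changes were -0.34, -0.12, 0.10 and 0.33. Fmr1, Fxr1 and Cpeb4, of the lowest class, were at -0.50, -0.39 and -0.46, and Fxr2, of the highest, at 0.15. Cpeb1 (-0.90) and Cyfip1 (0.13), both of the class whose median was -0.12, lay on opposite sides of it.

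An offset for the trend with GC content and transcript length was then added to the fit with the replicate block. In that fit Fmr1 was at -0.01 (adjusted p = 0.975), Fxr1 at -0.01 (adjusted p = 0.953) and Cpeb4 at 0.08 (adjusted p = 0.67, edgeR), so the call was lost for Fmr1 and Cpeb4. Cpeb2 was at -0.34 (SE 0.11, adjusted p = 0.0175), on the other side of the threshold. Cpeb1 was still called lower, at -0.83 (SE 0.19, adjusted p = 0.000198). Cyfip1 was called higher, at 0.39 (SE 0.12, adjusted p = 0.00528), with the GC content and length of its whole Gencode vM21 transcript, the end of which was not counted. The members called were thus 1 lower and 1 higher of 9, beside 7.23% of all genes called lower and 9.10% higher in the same fit. Leaving out a library, and so its pair, weakened both calls. Cyfip1 passed in 0 of 6 such fits, at log2 fold changes of 0.23 to 0.50 and adjusted p of 0.0167 to 0.0779. Cpeb1 passed without either library of replicate 1, and missed the threshold without polyribosome replicate 2 (adjusted p = 0.0146), total replicate 2 (0.0144), polyribosome replicate 3 (0.0158) and total replicate 3 (0.0104), always at -0.63 or lower. What part of the differences is due to base composition was not tested.

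**Figure D2:**
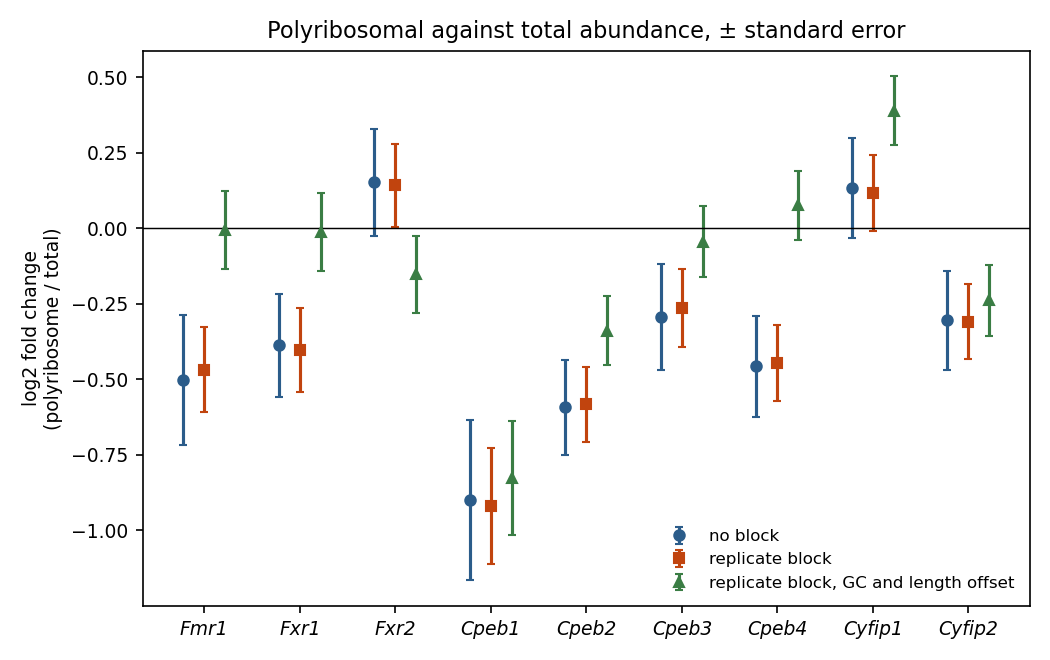
Log2 fold change of polyribosome over total (vertical axis) with its standard error for the 9 mRNAs in 3 fits, without block (circles), with the replicate block (squares) and with the block and the offset for GC content and transcript length (triangles). Cpeb1 is the lowest in each of the 3 fits, Fmr1, Fxr1 and Cpeb4 move to about 0 with the offset, and Cyfip1 moves from 0.13 to 0.39.

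**Figure D3:**
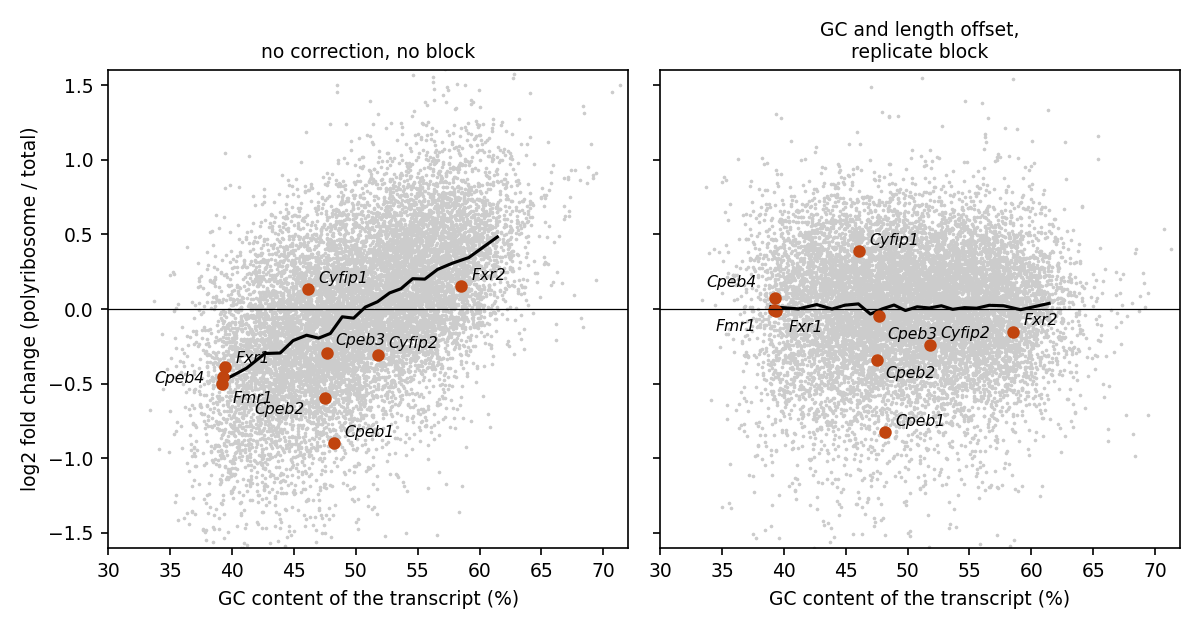
Log2 fold change of polyribosome over total against the GC content of the longest coding transcript in percent, for the genes tested (grey points), with the running median (black line) and the 9 mRNAs (orange points). In the left panel, without block or correction, the median rises with GC content, and in the right panel, with the offset and the block, it is flat, and Cpeb1 lies far below it and Cyfip1 above it.

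Within the families, the paralogs were compared by their log2 ratios of polyribosome to total in each pair of libraries, which gives 3 differences and no test. Fxr2 exceeded Fmr1 by 0.64, 0.63 and 0.55 in pairs 1 to 3, a mean of 0.61 ± 0.05 (SD, n = 3). The counting error of each log2 ratio was 0.13, 0.14 and 0.26 for Fmr1 and 0.14, 0.15 and 0.21 for Fxr2 in pairs 1 to 3, so that the SD of the 3 differences was smaller than the counting error of each. Fxr2 exceeded Fxr1 by 0.51 ± 0.29, and Fxr1 and Fmr1 differed by 0.10 ± 0.25, with mixed signs. With the offset for GC content and length, Fxr2 was at -0.15 (adjusted p = 0.406), below Fmr1 and Fxr1, which were both at -0.01.

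Among the CPEB mRNAs, Cpeb1 was below Cpeb3 by 0.70, 0.58 and 0.72 in the 3 pairs, a mean difference of -0.67 ± 0.07 (SD, n = 3), with counting errors of the Cpeb1 ratios of 0.25, 0.29 and 0.31. The GC content of these genes was 48.2% and 47.7%, and their longest coding transcripts had 3111 and 5899 bases. With the offset Cpeb1 was at -0.83 and Cpeb3 at -0.04 (adjusted p = 0.826). Cpeb1 was also below Cpeb4 (-0.51 ± 0.21) and below Cpeb2 (-0.38 ± 0.32) in every pair. The differences of Cpeb2 and Cpeb3 from Cpeb4 had mixed signs. Cyfip1 exceeded Cyfip2 by 0.45, 0.30 and 0.58, a mean of 0.45 ± 0.14. The 2 CYFIP genes encode proteins of equal length, 1253 residues, while the GC content of their transcripts was 46.1% and 51.8%. With the offset Cyfip1 was at 0.39 and Cyfip2 at -0.24 (adjusted p = 0.124). The part of GC content and length in the differences between paralogs was not tested.

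Levels were compared between genes per length, as CPM per kb of exon inside the gene bounds of the deposited table. In total RNA, Cyfip2 was the most abundant of the 9 mRNAs, at 90.0 ± 2.53 CPM per kb (SD, n = 3), followed by Cyfip1 (28.2 ± 2.56), Cpeb4 (23.9 ± 2.11) and Fxr2 (16.1 ± 2.56). Cpeb2 (14.1 ± 0.71), Fxr1 (14.0 ± 1.36), Fmr1 (11.2 ± 2.54), Cpeb3 (11.2 ± 2.05) and Cpeb1 (6.69 ± 3.00) came next. Among neighbours in this order, the libraries of Cyfip2 and Cyfip1 and those of Cpeb4 and Fxr2 did not overlap, and all others did. Cyfip2 mRNA thus exceeded the other 8 in every total library.

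On polyribosomes the order was Cyfip2 (72.9 ± 6.02), Cyfip1 (31.1 ± 3.61), Fxr2 (17.5 ± 1.72), Cpeb4 (17.3 ± 2.41), Fxr1 (10.8 ± 0.83), Cpeb2 (9.33 ± 0.84), Cpeb3 (8.97 ± 0.76), Fmr1 (8.08 ± 1.96) and Cpeb1 (3.24 ± 0.59 CPM per kb). Among neighbours, Fxr2 and Cpeb4, Cpeb2 and Cpeb3, and Cpeb3 and Fmr1 overlapped. The libraries of Cpeb4 thus lay above those of Fxr2 in total RNA and overlapped them on polyribosomes. Of 12203 genes tested with a length, 94.2% lay below Cyfip2 on polyribosomes and 96.7% in total RNA, while for Cpeb1 these shares were 27.6% and 47.4%. The exons are those of Gencode vM21, of which 4739 of 6641 bases lay inside the counted bounds for Cyfip1 and all bases for the other 8 genes.

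**Figure D4:**
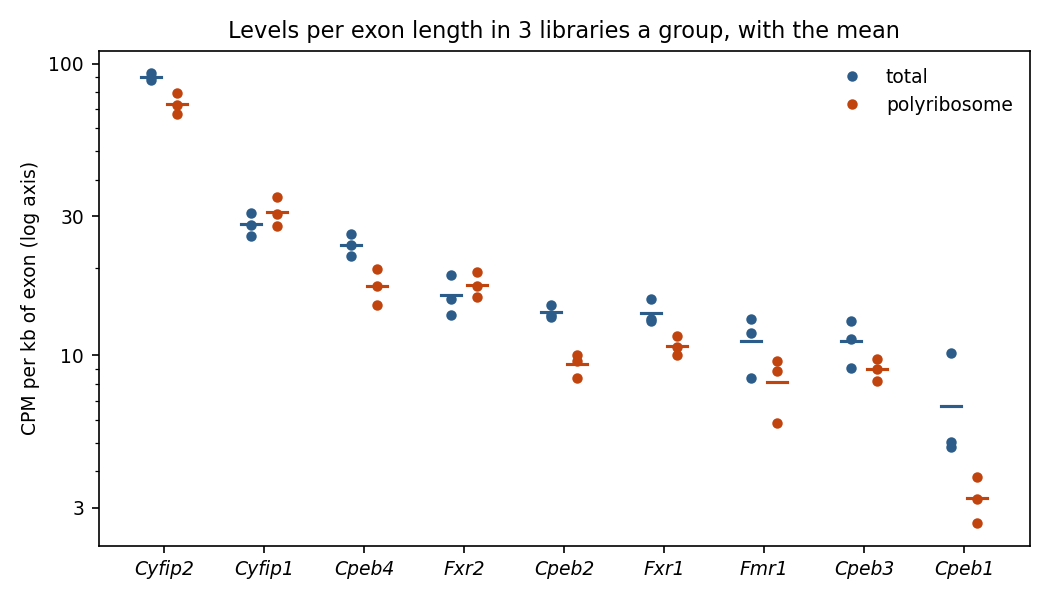
CPM per kb of counted exon (vertical log axis) of the 9 mRNAs in the 3 total (blue) and 3 polyribosome (orange) libraries, with horizontal bars at the group means, ordered by the mean in total RNA. Cyfip2 stands alone at the top in both groups and Cpeb1 at the bottom, with 1 total library well above the other total libraries of that gene.

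Cpeb2 and Cpeb4 held the most CPE matches of the 9 mRNAs. The 3′ UTR of Cpeb2 (3778 bases) holds 24 matches to TTTTAT or TTTTAAT, a number reached by 16 of 12154 genes (0.132%), and that of Cpeb4 (4102 bases) holds 17, reached by 81 genes (0.666%). Fmr1 and Cpeb1 hold 4 each, reached by 23.4% of genes, Cpeb3 holds 6, reached by 12.8%, Cyfip1 holds 3, and Fxr1 and Cyfip2 hold 1 each. Per kb of 3′ UTR, Cpeb2 had 6.35 and Cpeb4 had 4.14 matches, and Cpeb1, with a shorter 3′ UTR, had 3.04 and Cpeb3 had 1.68, beside a median of 1.07 over 9460 genes with a 3′ UTR of at least 500 bases. Cpeb2 and Cpeb4 had log2 fold changes of -0.59 and -0.46. The median was -0.59 over the genes with 24 or more matches and -0.46 over those with 17 or more. With the block and the offset, Cpeb2 and Cpeb4 were at -0.34 and 0.08, and these medians were -0.05 and 0.07. Cpeb1, with 4 matches, had -0.90.

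Over all genes, those with 4 or more matches had a median log2 fold change of -0.27, those with 1 to 3 had 0.00 and those with none had 0.20. Their median GC content moved alongside, at 44.4%, 50.0% and 54.7%. With the replicate block and the offset for GC content and length, the medians were 0.04, 0.01 and 0.00. A match is only a run of letters, and the part of base composition in these differences was not tested.

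The genes that act with the 9 regulators were set out in 8 lists by role. The counts of each list stand beside the shares of all genes tested, which were 11.8% called higher and 13.2% lower with the block, and 9.10% and 7.23% with the offset added. Without the block edgeR called 0.710% higher and 2.36% lower, and 50.1% of all genes were above 0. At an unadjusted p under 0.05 in that fit, 1888 of the 12255 genes were higher and 2092 lower. DESeq2 called 268 higher and 402 lower. With the offset and the block, the median log2 fold change was -0.07 for the FMRP partners and 0.05 for the enzymes acting on FMRP. It was 0.03 for the CPEB machinery, 0.09 for the cap-binding proteins and related factors, and -0.23 for the WAVE complex. For the FMRP targets it was 0.08, for the CPEB targets 0.29 and for other neuronal RNA-binding proteins -0.14.

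The partners of FMRP, proteins that bind it or share its granules, formed a list of 21 genes, of which 20 were tested. Their median log2 fold change was -0.36, and 19 of 20 were below 0. Without the block only Stau2 passed, lower on polyribosomes, 9 were lower and 0 higher at an unadjusted p under 0.05, and with the block 8 were lower and 0 higher. Stau2 encodes Staufen 2, a double-stranded RNA-binding protein that carries mRNAs into dendrites. It had 61.0, 65.2 and 44.7 CPM on polyribosomes and 111.7, 120.2 and 111.2 in total RNA. The log2 fold change of Stau2 was -1.004 (SE 0.18, adjusted p = 0.00385, edgeR), and with the offset and the block it was -0.68 (adjusted p = 2.09e-07). Its call without the block was lost without polyribosome replicate 2 (-1.11, adjusted p = 0.0124), total replicate 1 (-1.03, 0.0175) or total replicate 2 (-0.96, 0.0301), and with the offset alone (-0.70, 0.0137). Pura and Purb, which encode single-stranded nucleic acid-binding proteins of transport granules, had log2 fold changes of -0.54 and -0.53, and passed only with the block (adjusted p = 0.000257 and 0.000255), and with the offset added they were at -0.19 and -0.11. With the offset and the block, 1 partner was called higher and 3 lower.

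Of 9 genes for enzymes acting on FMRP (kinases, a phosphatase and ubiquitin ligase subunits), 8 were tested, with a median log2 fold change of -0.09. None was called without the block, although 1 was higher and 1 lower at an unadjusted p under 0.05 and DESeq2 called 1 lower, and with the block 1 was lower. The gene called with the block, Rps6kb1, which encodes the S6 kinase and is named here after its values were seen, was at -0.97 (adjusted p = 0.0183 without and 1.55e-06 with the block). Ppp2r1a and Ppp2ca, the scaffold and a catalytic subunit of the phosphatase PP2A, were at 0.36 and -0.10, and Csnk2a1, a subunit of casein kinase 2, at -0.24, and none of these passed in either fit. With the offset and the block, 0 of the 8 were called.

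The machinery that works with CPEB proteins at the poly(A) tail gave 17 tested genes of 18, with a median log2 fold change of -0.08. Of these, 0 were called without the block by edgeR or DESeq2, with 1 higher and 5 lower at an unadjusted p under 0.05, and with the block 2 were higher and 3 lower, beside 11.8% and 13.2% of all genes. Cnot7 and Cnot1, the deadenylase and the scaffold of the CCR4-NOT complex, passed only with the block, lower on polyribosomes, at -0.67 (adjusted p = 0.0386 without and 0.000543 with the block) and -0.64 (0.0381 and 4.3e-05). With the offset added both calls were lost, at -0.29 (adjusted p = 0.125) and -0.30 (0.0411). Sumo2, which encodes a small ubiquitin-like modifier and is listed both here and among the CPEB targets, was at 0.55 (adjusted p = 0.0775 without and 0.00663 with the block). With the offset and the block, 1 gene was called higher and 1 lower, and Sumo2 was the higher of them, at 0.55 (adjusted p = 0.00183).

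The list of cap-binding proteins and related initiation factors and binding proteins gave 9 tested genes of 11, with a median of -0.20. Of this list, eIF4E is the protein to which CYFIP1 attaches. By edgeR and DESeq2 0 were called without the block, 1 was lower at an unadjusted p under 0.05, and 1 was lower with the block. The genes with the largest differences among the well-counted ones were Eif4e, the cap-binding protein itself, at -0.34, Eif4g2 at -0.27 and the helicase gene Eif4a2 at -0.20. None of these passed in either fit, and with the offset their values were 0.10, 0.10 and 0.15.

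The WAVE complex and Rac genes, the actin branch of CYFIP function, were all tested, 11 of 11, with a median of -0.24. Again edgeR and DESeq2 called 0 without the block, 3 were lower at an unadjusted p under 0.05, and 3 were lower with the block, beside 13.2% of all genes. The genes called with the block were Abi2, Nckap1 and Wasf1, which encode the Abi, Nap1 and WAVE subunits. In that fit they were at -0.619 (adjusted p = 3.21e-05), -0.554 (0.000194) and -0.515 (0.00111). With the offset added only Wasf1 was called, at -0.53 (adjusted p = 0.000225), while Abi2 was at -0.24 (0.102) and Nckap1 at -0.32 (0.026).

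The mRNAs commonly cited as FMRP targets had values on both sides of 0. All 26 were tested, with a median of 0.02. Without the block edgeR called 0, with 5 higher and 2 lower at an unadjusted p under 0.05, and DESeq2 called 1 higher. With the block 6 were higher and 2 lower, beside 11.8% and 13.2% of all genes, and with the offset added 3 were higher and 0 lower, beside 9.10% and 7.23%. App, which encodes the amyloid precursor protein, was at 0.80 (SE 0.22, adjusted p = 0.0286 without and 3.98e-07 with the block), and at 1.11 with the offset. Dlgap3, which encodes a postsynaptic scaffold, was at 0.66 (adjusted p = 0.113 without and 4.62e-06 with the block), and Pclo, which encodes the presynaptic scaffold Piccolo, at -0.70 (0.0778 and 1.21e-06). With the offset added both calls were lost, at 0.32 (adjusted p = 0.0323) for Dlgap3 and -0.28 (0.0687) for Pclo.

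The mRNAs commonly cited as CPEB targets gave 11 tested genes of 12, with a median of 0.07. Without the block edgeR and DESeq2 called 0, with 5 higher and 0 lower at an unadjusted p under 0.05. With the block 5 were higher and 0 lower, and the numbers were the same with the offset added. Actb, which encodes β-actin, was at 0.59 (adjusted p = 0.0469 without and 0.000146 with the block). Plat, the tissue plasminogen activator gene and a dendritic CPE-containing mRNA, was at 0.56 (0.0538 and 0.000838). Camk2a, Dlg4 and Grin2a are on both the FMRP and the CPEB target list. Camk2a, Dlg4 and Grin1 of the CPEB targets are also among the neuron markers below, so these lists are not independent.

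Other RNA-binding proteins of neurons were set beside the 9 genes for comparison. All 25 were tested, with a median of -0.41, and 21 were below 0. Without the block 2 were lower (Elavl2 and Khdrbs2) and 0 higher, 12 were lower and 0 higher at an unadjusted p under 0.05, and DESeq2 called 3 lower. With the block 10 were lower and 0 higher, and with the offset added 5 were lower and 1 higher. Elavl2, a neuronal Hu protein gene, had 21.4, 23.6 and 19.4 CPM on polyribosomes and 47.4, 43.2 and 39.3 in total RNA. For Elavl2 the log2 fold change was -1.03 (SE 0.18, adjusted p = 0.0036, edgeR). Khdrbs2, a splicing regulator gene of the STAR family, had 4.74, 4.22 and 3.71 CPM against 10.9, 12.4 and 13.4, and a log2 fold change of -1.48 (SE 0.25, adjusted p = 0.00313). Both calls were lost without polyribosome replicate 2 (adjusted p = 0.0148 for Elavl2 and 0.0157 for Khdrbs2), total replicate 1 (0.0288 and 0.0137) and total replicate 2 (0.0243 and 0.0252), and that of Elavl2 also without polyribosome replicate 1 (0.0115). With the offset alone the adjusted p was 0.0652 and 0.0386, and with the offset and the block both passed, at -0.53 (0.00146) and -0.92 (0.00181). Celf2 and Pum2, which encode 3′ UTR-binding regulators, were at -0.74 and -0.53, and passed with the block (adjusted p = 7.6e-07 and 0.000315) and not without it. With the offset added both calls were lost, at -0.27 (adjusted p = 0.0618) and -0.14 (0.401).

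**Figure D5:**
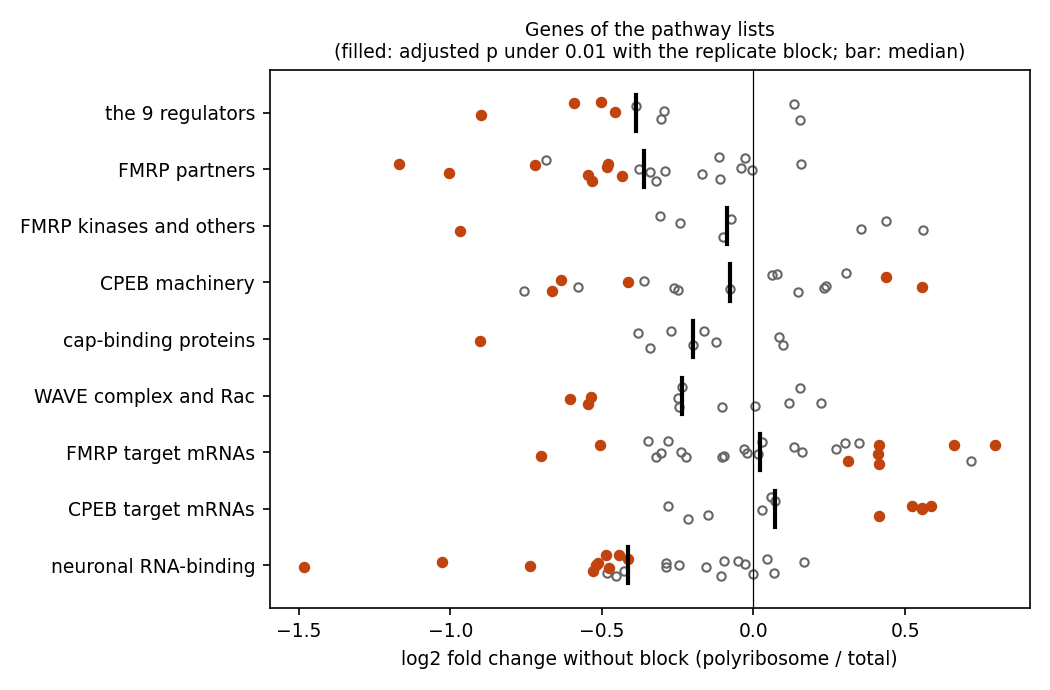
Log2 fold change without the block (horizontal axis) of each tested gene in the 9 regulators and the 8 pathway lists (rows), with filled orange points for genes past an adjusted p of 0.01 with the replicate block, open points for the others and a black bar at each median. The points of the 9 regulators, the FMRP partners and the neuronal RNA-binding proteins lie mostly below 0, with medians of -0.39, -0.36 and -0.41, and the filled points among the CPEB targets lie above 0.

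Markers of the cell types that a synaptoneurosome preparation can hold moved with the comparison. Over all genes tested, 50.1% were above 0 without the block, and 11.8% were called higher and 13.2% lower with it. The summed CPM of 11 neuron markers was 11110 to 14190 on polyribosomes and 10070 to 11720 in total RNA, with a median log2 fold change of 0.09, and with the block 4 were called higher and 1 lower. Astrocyte markers summed to 45790 to 50580 against 35160 to 41190, with 11 of 11 above 0, a median of 0.56 and 8 called higher with the block. Oligodendrocyte markers summed to 11220 to 15070 against 8058 to 11200, with 9 of 9 above 0, a median of 0.54 and 6 called higher with the block. The summed levels of these astrocyte and oligodendrocyte lists did not overlap between the groups and were higher on polyribosomes. The oligodendrocyte ranges nearly touched, at 11220 against 11200. No marker on any list was at 0 in all libraries.

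Microglia markers summed to 824.1 to 981.0 against 568.7 to 747.2 CPM, also without overlap. Of these 9 markers, 9 were above 0 without the block and 8 with it, and 3 were called higher with it. Endothelial markers summed to 314.2 to 545.0 against 325.1 to 337.9, with 6 of 7 above 0 and 1 called higher with the block. With the offset and the block, 6 neuron, 11 astrocyte, 9 oligodendrocyte, 6 microglia and 6 endothelial markers were above 0. In that order 1, 11, 4, 4 and 0 were called higher and 0 lower on each list, beside 9.10% and 7.23% of all genes. The part of these cell types in the values of the 9 regulators was not tested. In such bulk samples the RNA of different cell types cannot be told apart. According to the methods, pooled synaptoneurosomes were divided into aliquots, which served for the total RNA and for the stimulation.

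The gene whose log2 CPM ran most alike with each member over the 6 libraries was Ncapg2 for Fmr1 (Pearson r = 0.998), Dcdc2a for Fxr1 (0.999), Stmn1 for Fxr2 (0.997) and Mthfs for Cpeb1 (0.997). For the other members it was Btrc for Cpeb2 (0.999), Fmnl1 for Cpeb3 (0.993), Sacm1l for Cpeb4 (0.997), Tcp11l2 for Cyfip1 (0.994) and Lurap1l for Cyfip2 (0.993). With 12255 genes and 6 libraries that share their group and depth, such values are a description only. Among the members themselves the most alike were Cpeb2 and Cpeb4 (0.92), then Fxr1 and Cyfip2 (0.88). Cyfip1 ran with no other member, with its highest value at -0.01 (Fxr2).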

How the data were processed

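RNA of synaptoneurosomes was sequenced as 3 polyribosome and 3 total libraries. The authors depleted ribosomal RNA, made strand-specific libraries, mapped reads with STAR 2.5.2b to GRCm38 (mm10) and deposited unnormalized counts for the genes of the Gencode vM6 basic annotation. Strand use in counting is not given in the sources used here. The deposited table also holds the authors' DESeq2 comparison (mean normalized count, log2 fold change, its error, statistic, p-value and adjusted p), which was not used.

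The counts were tested with edgeR 4.0.16 in R 4.3.3 (TMM, filterByExpr, quasi-likelihood test, Benjamini-Hochberg adjustment, threshold 0.01). Only the fit without the block and the offset was first tried on simulated data. The fits with the block or the offset were not tried in that way. Replicate numbers were taken to pair the libraries, since the methods divide synaptoneurosomes pooled from several mice into aliquots (whether each number was a separate pool is not stated), the column headers of a number are shared, and their deviations from the mean of the group had correlations over genes of 0.37, 0.26 and 0.38 within numbers and of -0.35 to 0.11 between them. Replicates differed by more than sampling noise. Library totals were 5294482 to 7361580 counts for polyribosome and 1044955 to 3738022 for total libraries, and low counts limit Cpeb1 most.

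The offset used natural splines (5 degrees of freedom each) of GC content and log2 length of the longest coding transcript in Gencode vM21 (known for 99.6% of tested genes). Other settings tried were DESeq2 1.42.0, RLE, upper quartile or no normalization factors, a filter of 1 count, the block, the offset and leaving out each library. The members and lists were chosen with earlier results of these data known. Genes named from a list were those past the threshold and the 3 with the largest change among those whose mean normalized count reached 100, and for each member the gene with the highest Pearson correlation of log2 CPM (prior count 2).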

Additional observations from a re-analysis of the deposited data

How the results depend on the processing

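The replicate block changed the most. It gave 1441 genes called higher and 1622 lower over all genes, 4 members lower, and 11 genes of the pathway lists higher and 28 lower, in place of 87, 289, 0, 0 and 3. With the GC and length offset and the block these were 1115, 886, 1 member higher and 1 lower, and 9 and 10 list genes. With the offset alone they were 31 and 94 over all genes, and 1 and 0 list genes. Keeping all genes with at least 1 count gave 476 and 566, 1 member lower (Cpeb1), and 1 and 5 list genes. DESeq2 gave 268 higher, and 1 and 5 list genes, and total counts alone 42 higher. Leaving out 1 library gave 0 to 61 genes higher and 22 to 208 lower (0 and 22 without total replicate 2), and 0 to 3 list genes lower, 0 of them without polyribosome replicate 2, total replicate 1 or total replicate 2.

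The following were added after seeing the data. With the block, leaving out 1 library gave 1 to 5 members lower, total counts alone 6 and all genes with at least 1 count 4. With the offset and the block, leaving out 1 library gave 0 to 2 members lower and 0 higher. With the block, Cyfip1 was at -0.008 without polyribosome replicate 3 and at -0.012 without total replicate 3.

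The other signs that turned did so with the offset. Alone and with the block, it gave -0.15 and -0.152 for Fxr2, 0.069 and 0.076 for Cpeb4, 0.041 and 0.051 for Csnk2a1, 0.243 and 0.238 for Ppp2ca, 0.104 and 0.105 for Eif4e, 0.109 and 0.101 for Eif4g2, 0.162 and 0.148 for Eif4a2, and alone 0.042 for Fxr1. None of these passed. The cause of the turned signs was not tested. Cyfip2 was at 654.6 CPM in total RNA under total counts alone, in place of 632.6. These values differ by the TMM factors, which were 1.0803, 1.0294 and 1.0009 for total replicates 1 to 3. Total replicate 3 held 33 to 642 counts per member, which limits the precision there.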
